A study of Homo sapiens with 2 samples.

Results

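The WNT ligands, their receptors, their secreted antagonists and a few closely linked genes were examined in a map of DNase I hypersensitive sites from 2 established human osteosarcoma cell lines, Saos-2 and U2OS. The 53 genes form a fixed list: 19 WNT ligands, 14 receptors and co-receptors (10 FZD genes, LRP5, LRP6, ROR1 and ROR2), 10 antagonists (4 DKK genes, 4 SFRP genes, FRZB and WIF1), 7 genes of the R-spondins and their LGR receptors, and AXIN2, LEF1 and TCF7. They are 53 of the 20037 protein-coding genes of the RefSeq table used (on GRCh38.p14, whose primary assembly is that of hg38). Each line was profiled with 1 library, and the labels name no treatment, genotype change or passage for either. DNase I cuts DNA that is not wrapped in nucleosomes or otherwise protected, so a region with many cuts, called here a hotspot, marks accessible chromatin such as an active promoter or enhancer. With 1 library per line there is no replicate error and no test between the lines is possible, so every difference below compares these 2 libraries. The number of reads is unknown, and a deeper library yields more and wider hotspots, so depth and accessibility cannot be told apart.

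WNT proteins are secreted lipid-modified ligands. In the β-catenin branch of the pathway they bring a Frizzled (FZD) receptor together with LRP5 or LRP6, which stops the destruction of β-catenin and lets it act with the DNA-binding factors LEF1 and TCF7 on targets such as AXIN2. Other WNT proteins, WNT5A among them, also signal through the receptor tyrosine kinases ROR1 and ROR2 without β-catenin. DKK1 blocks LRP5 and LRP6, whereas SFRP proteins, FRZB and WIF1 bind the ligands. R-spondins act through LGR receptors to keep Frizzled receptors on the cell surface. In bone the pathway is known to favour osteoblast formation, and LRP5 is a classic regulator of bone mass.

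Promoter sequences of 300 bases around a listed transcription start are shown for the genes where 1 line alone had a hotspot in them. Also shown are 1 promoter with hotspots of both lines in the 300 bases and 1 with none. The sequences are taken from RefSeq on GRCh38.p14. They run 5′ to 3′ on the strand of the gene, from 250 bases before the start to 50 bases from it onwards. In the promoters of ROR1, ROR2, WNT9B, FZD4 and WNT2B, capitals mark bases inside a hotspot of either line. In the promoter of DKK1, capitals mark matches to the TCF/LEF core motif CTTTGA on either strand.
ROR1 (chr1:63773767-63774066, plus strand): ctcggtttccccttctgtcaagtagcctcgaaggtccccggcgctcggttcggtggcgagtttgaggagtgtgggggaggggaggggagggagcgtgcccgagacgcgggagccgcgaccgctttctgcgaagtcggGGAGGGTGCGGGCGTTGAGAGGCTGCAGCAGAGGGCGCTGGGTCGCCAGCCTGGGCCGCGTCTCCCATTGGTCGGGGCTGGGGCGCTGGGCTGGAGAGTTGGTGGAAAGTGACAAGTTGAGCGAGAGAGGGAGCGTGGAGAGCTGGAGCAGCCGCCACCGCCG
ROR2 (chr9:91950179-91950478, minus strand): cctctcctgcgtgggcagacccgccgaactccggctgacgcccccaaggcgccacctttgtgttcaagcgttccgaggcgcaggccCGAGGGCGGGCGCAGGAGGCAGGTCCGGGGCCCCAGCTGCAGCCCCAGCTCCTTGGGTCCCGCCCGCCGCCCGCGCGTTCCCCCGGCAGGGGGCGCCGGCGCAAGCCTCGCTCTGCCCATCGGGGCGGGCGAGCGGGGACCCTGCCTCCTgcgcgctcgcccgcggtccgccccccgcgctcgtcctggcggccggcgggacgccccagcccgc
WNT9B (chr17:46851333-46851632, plus strand): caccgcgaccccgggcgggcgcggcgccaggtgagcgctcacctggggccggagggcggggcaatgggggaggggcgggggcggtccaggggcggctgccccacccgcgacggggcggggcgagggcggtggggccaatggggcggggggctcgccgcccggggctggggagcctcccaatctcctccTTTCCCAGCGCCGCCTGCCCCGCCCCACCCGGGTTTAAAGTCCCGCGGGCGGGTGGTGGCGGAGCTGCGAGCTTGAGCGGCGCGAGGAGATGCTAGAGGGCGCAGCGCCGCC
FZD4 (chr11:86955346-86955645, minus strand): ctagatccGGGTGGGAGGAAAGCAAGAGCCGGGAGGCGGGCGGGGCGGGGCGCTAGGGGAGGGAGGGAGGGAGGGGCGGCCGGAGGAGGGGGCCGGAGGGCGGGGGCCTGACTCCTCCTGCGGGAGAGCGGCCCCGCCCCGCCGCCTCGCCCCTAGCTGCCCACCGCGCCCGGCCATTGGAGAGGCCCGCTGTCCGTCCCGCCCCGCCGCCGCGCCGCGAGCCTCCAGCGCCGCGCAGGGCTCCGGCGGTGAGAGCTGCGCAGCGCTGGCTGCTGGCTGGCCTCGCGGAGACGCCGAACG
WNT2B (chr1:112466291-112466590, plus strand): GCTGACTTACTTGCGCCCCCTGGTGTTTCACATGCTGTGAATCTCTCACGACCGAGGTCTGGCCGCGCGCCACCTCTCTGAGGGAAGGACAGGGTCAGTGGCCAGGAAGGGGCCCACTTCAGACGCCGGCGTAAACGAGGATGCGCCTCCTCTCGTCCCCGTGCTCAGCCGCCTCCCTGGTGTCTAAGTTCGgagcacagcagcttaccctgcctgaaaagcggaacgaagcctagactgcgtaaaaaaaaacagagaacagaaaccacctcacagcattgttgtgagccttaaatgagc
DKK1 (chr10:52314031-52314330, plus strand): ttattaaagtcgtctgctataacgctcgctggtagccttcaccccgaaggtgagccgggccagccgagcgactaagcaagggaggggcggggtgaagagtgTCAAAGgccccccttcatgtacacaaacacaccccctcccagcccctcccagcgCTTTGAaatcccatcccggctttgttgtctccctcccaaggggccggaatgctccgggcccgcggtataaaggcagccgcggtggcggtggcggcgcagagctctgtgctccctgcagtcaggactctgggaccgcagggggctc
The capitals cover 163 bases at ROR1 and come from Saos-2. They cover 150 bases at ROR2, 112 at WNT9B and 292 at FZD4, and at these 3 genes they come from U2OS. At WNT2B hotspots covered 144 of the 300 bases in Saos-2 and 192 in U2OS. No hotspot of either line touched the 300 bases at DKK1.

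The Saos-2 list held 51556 hotspots over 14.2 Mb and the U2OS list 63388 over 17.8 Mb, so U2OS had 1.25-fold more covered bases in the whole genome. The authors' significance of a hotspot, a −log10 value between 1.30 and 100, is used below to describe and rank hotspots within 1 list. The labelled cell type could not be read clearly from hotspots at marker genes. Of 8 osteoblast or mesenchymal markers, 4 had a hotspot within 1 kb of a start or gene end in at least 1 line: RUNX2 and SPARC in both, COL1A1 in U2OS and ALPL in Saos-2. The same held for 2 of 5 blood, 3 of 5 epithelial, 3 of 4 neural, 1 of 3 liver and 0 of 3 endothelial markers, and for 58.2% of all protein-coding genes. Around the marker genes TWIST1 and HBB, 0 bases were covered within 50 kb in Saos-2, and around TTR 0 bases in either line.

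For each gene the bases covered by hotspots were summed over the gene and 50 kb on both sides. The 53 windows fall into 49 separate stretches of 7.98 Mb, because 4 pairs of neighbouring WNT genes share part of their windows. These stretches held 229 Saos-2 hotspots over 60.1 kb and 235 U2OS hotspots over 68.9 kb. The U2OS to Saos-2 ratio was thus 1.15 for covered bases and 1.03 for hotspot number, compared with 1.25 and 1.23 in the whole genome. These sums weigh long genes more: ROR1 alone held 28 of the 229 Saos-2 hotspots, over 8218 bp, and 13 of the 235 in U2OS, over 4865 bp. U2OS had more covered bases around 37 of the genes and Saos-2 around 16. Over all 20037 protein-coding genes, U2OS had more around 12432 and Saos-2 around 6736. The counts by role below stand beside these.

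A difference of at least 2-fold in covered bases was used as the call, with a gene covered in 1 line alone counted as called. By this rule 16 of 53 genes were higher in U2OS, compared with 26.0% of all protein-coding genes that had a hotspot in their window, and 6 were higher in Saos-2, compared with 7.91%. Both shares of the list lie near those of all genes. With the ratio centred on the genome-wide one, 9 were higher in U2OS, compared with 19.6% of all genes. The median log2 ratio of U2OS to Saos-2 was 0.39 over the 48 genes covered in both lines, against 0.26 over 17522 protein-coding genes. Of the 16 genes called for U2OS, 4 had fewer than 500 covered bases in both lines: WNT4, DKK2, SFRP1 and SFRP4. Just inside the 2-fold limit were SFRP1 at 2.09 and DKK3 at 2.14, and just outside it were RSPO4 at 1.81 and WNT3 and WNT7B at 1.79 each.

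**Figure D1:**
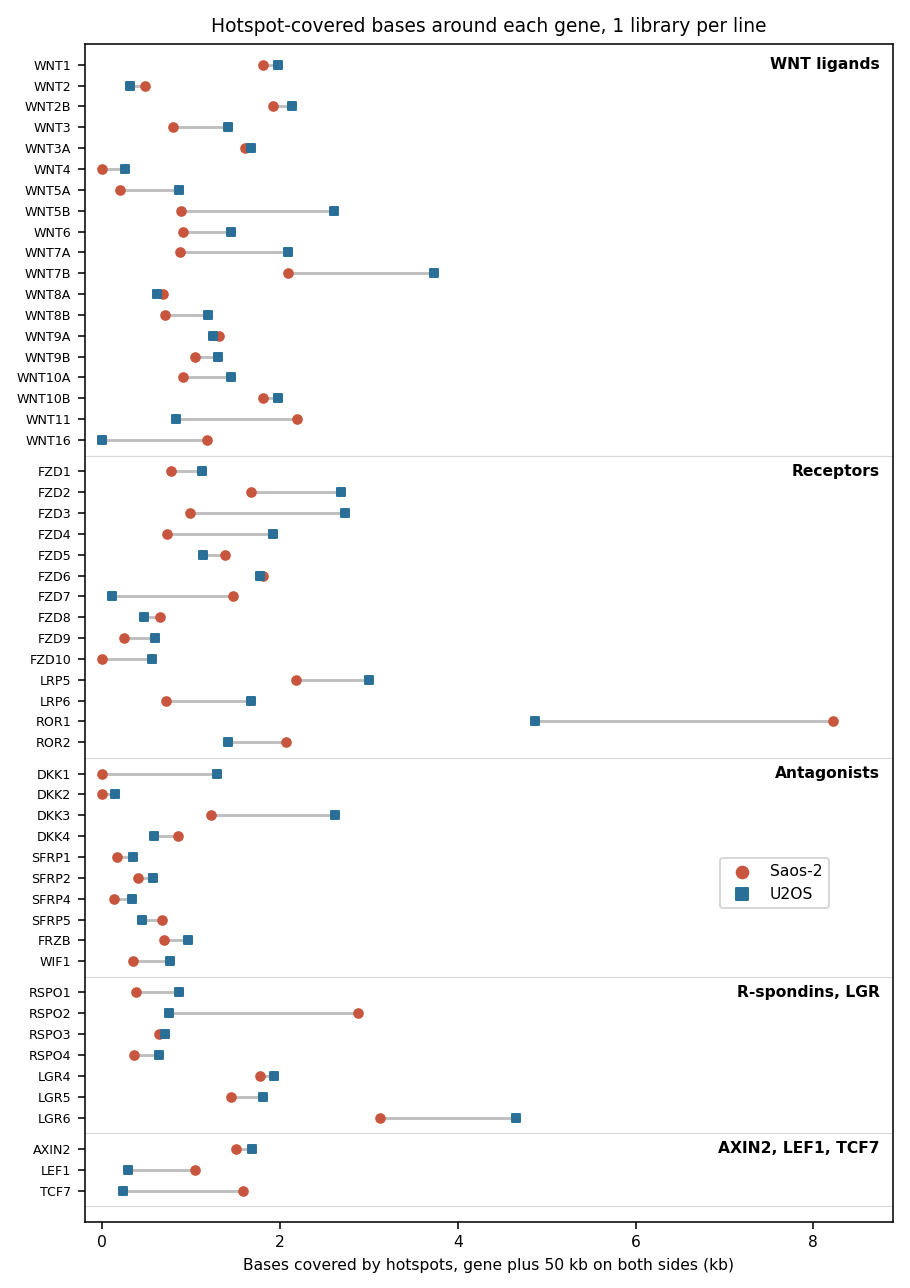
Bases covered by hotspots in the window of each gene plus 50 kb on both sides (x axis, kb) for Saos-2 (circles) and U2OS (squares), 1 library each, with genes grouped by role and a line joining the 2 values. ROR1, which has the longest window (507 kb), had the highest sum, not scaled to window length, in both lines, with 8218 bp in Saos-2 against 4865 bp in U2OS, while 4 genes had no covered base in Saos-2 and 1 had none in U2OS.

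**Figure D2:**
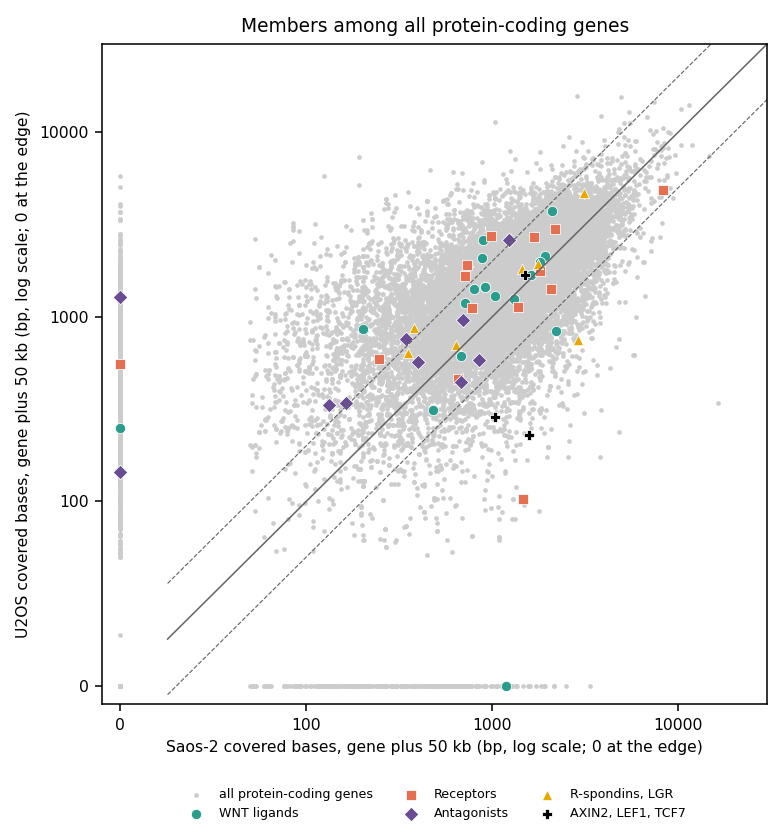
Covered bases in the same windows in Saos-2 (x axis) and U2OS (y axis), in bp on log scales with 0 drawn at the edge, for all protein-coding genes (grey) and the 53 genes by role. The solid line marks equal values and the dashed lines a 2-fold difference; 16 genes of the list lie on or above the upper dashed line and 6 on or below the lower one.

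Among the 19 WNT ligands, 14 had more covered bases in U2OS and 5 in Saos-2, and the calls were WNT4, WNT5A, WNT5B and WNT7A for U2OS and WNT11 and WNT16 for Saos-2. The median was 909 bp in Saos-2 against 1418 bp in U2OS. The 4 of 19 called for U2OS lie near the 26.0% of all genes, and the 2 of 19 called for Saos-2 stand beside 7.91%. With a window of 10 kb, in which 18 ligands had a hotspot, 8 were called, against 28.3% of all genes. Few ligands had an accessible start: 15 of 19 had no hotspot within 1 kb of one in either line. Gene ends were used where the table lists no start. Of all 20037 protein-coding genes, 8366 had no such hotspot in either line.

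WNT5A (gene 7474, chromosome 3, 55465715 to 55505263), the best known ligand of the β-catenin-independent branch, had 202 covered bp in Saos-2 against 863 bp in U2OS, a ratio of 4.27. The single Saos-2 hotspot lay outside the gene, whereas 2 of the 3 U2OS hotspots lay inside it. The most significant of these, at 55491296 to 55491679, lay 3.99 kb upstream of a listed start and had a significance of 11.4. None of the 4 hotspots overlapped one of the other line, and neither of the 2 listed starts had a hotspot within 1 kb.

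WNT5B (gene 81029, chromosome 12, 1617056 to 1647212), the closest relative of WNT5A, had 887 bp in Saos-2 against 2601 bp in U2OS, a ratio of 2.93. Within 10 kb of the gene, 0 bp were covered in Saos-2 and 87 bp in U2OS, so most of the difference lay further out. All 3 Saos-2 hotspots were overlapped by U2OS ones, and U2OS had 4 further hotspots, 2 of which lay within 1 kb of the neighbouring genes FBXL14 and ADIPOR2. The most significant U2OS hotspot of the window (29.9), a shared one of 618 bp, also lay within 1 kb of ADIPOR2. The shared site at 1661718 to 1662317 in U2OS was 600 bp wide, and its Saos-2 counterpart was 149 bp wide. A U2OS hotspot with a significance of 13.1, at 1606025 to 1606510, had no Saos-2 counterpart and lay 10.5 kb upstream of the first listed start. Within 1 Mb beyond the window on both sides, the U2OS to Saos-2 ratio of covered bases was also high, at 2.22, and the part of this in the difference was not tested.

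WNT7A (gene 7476, chromosome 3, 13816258 to 13880071) had 878 bp in Saos-2 against 2088 bp in U2OS, a ratio of 2.38, and inside the gene Saos-2 had 1 hotspot and U2OS 4. Its surroundings differed little, with a ratio of 1.02 within 1 Mb beyond the window. WNT7B (gene 7477, chromosome 22, 45920366 to 45977162) had the highest ligand coverage in U2OS, 3737 bp against 2090 bp, and did not reach 2-fold. A U2OS hotspot with a significance of 10.8, at 45919060 to 45919379, lay 0.987 kb below its lower-coordinate end and had no Saos-2 counterpart. Around WNT4 there was no Saos-2 hotspot, and U2OS had a single one of 251 bp inside the gene.

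WNT11 (gene 7481, chromosome 11, 76186325 to 76210761), a ligand of cell movement in development, went the other way with 2191 bp in Saos-2 against 832 bp in U2OS, a ratio of 2.63 in favour of Saos-2. Neither line had a hotspot inside the gene or within 10 kb of it, and the nearest, in Saos-2, lay 19.6 kb away. Of the 9 Saos-2 hotspots 6 had no U2OS counterpart, among them those at 76234019 to 76234556 and at 76166388 to 76166712 with significances of 15.7 and 12.1. Beyond the window the balance was reversed, since U2OS had 1.89 times the covered bases of Saos-2 within 1 Mb.

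WNT16 (gene 51384, chromosome 7, 121325367 to 121341104), a ligand made by osteoblasts and linked to cortical bone thickness, had 5 Saos-2 hotspots over 1181 bp and no U2OS hotspot in its window. Distances to a start or gene are to the nearest edge of the hotspot. All 5 lay upstream of the listed start, and the most significant (8.48), at 121323514 to 121323860, was the nearest to it at 5.14 kb. The nearest U2OS hotspot to the start of WNT16 was 67.2 kb away. WNT2, a further ligand on chromosome 7, had 478 bp in Saos-2 against 313 bp in U2OS, with no overlapping hotspot.

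The ligands that lie in pairs differed less. WNT1 and WNT10B share the same 1804 bp in Saos-2 against 1976 bp in U2OS, and WNT6 and WNT10A share 909 bp and 1446 bp. WNT3 and WNT9B, and WNT3A and WNT9A, share part of their windows. None of these 8 genes was called in either direction. WNT9B had a U2OS hotspot of 128 bp across its listed start with a significance of 2.04, which is low in the U2OS list, above 13.1% of its hotspots. WNT2B was the only ligand with a hotspot within 1 kb of a listed start in both lines, with significances of 8.11 in Saos-2 and 11.1 in U2OS. The nearest hotspot to its second listed start was 13.7 kb away in Saos-2 and 13.6 kb in U2OS. WNT10B, for which no start is listed, had hotspots within 1 kb of its upper end in both lines, but these did not overlap each other.

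**Figure D3:**
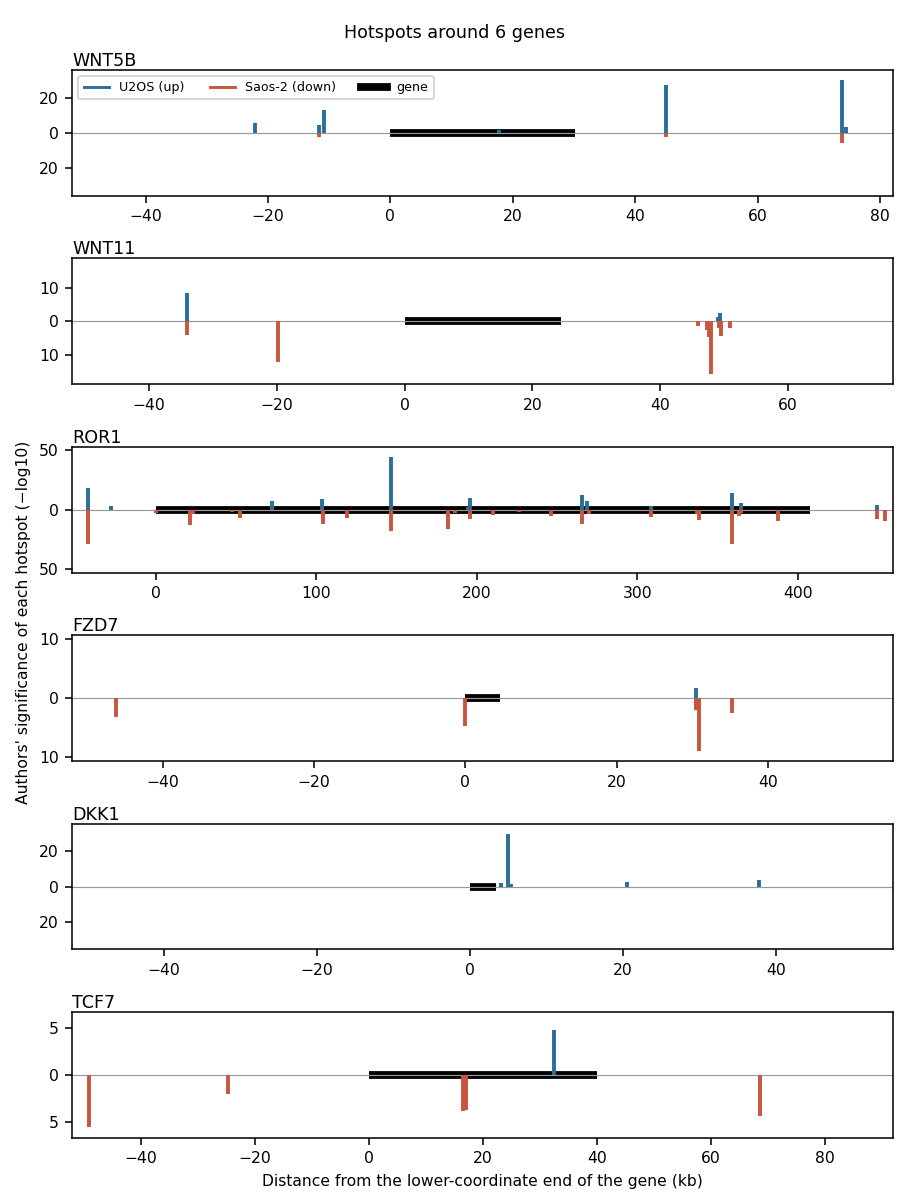
Hotspots around WNT5B, WNT11, ROR1, FZD7, DKK1 and TCF7 by their distance from the lower-coordinate end of the gene (x axis, kb), with U2OS upwards and Saos-2 downwards, and the gene as a black bar. Bar height is the authors' −log10 significance, which ranks hotspots within a line only. DKK1 has 5 U2OS and no Saos-2 hotspots, and FZD7 has 6 Saos-2 hotspots and 1 in U2OS.

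Receptor genes had a hotspot at a start or gene end in a larger share than ligand genes. Of the 14 receptors and co-receptors, 12 had a hotspot within 1 kb of a start or gene end in at least 1 line and 8 in both, whereas 4 of 19 ligands had one and 2 in both. For all protein-coding genes the share with one in both lines was 43.3%, the share in U2OS only 10.1% and the share in Saos-2 only 4.79%. Over all 53 genes of the list the counts were 14 in both lines, 5 in U2OS only (WNT7B, WNT9B, FZD6, SFRP1 and ROR2) and 4 in Saos-2 only (FZD7, ROR1, RSPO2 and LGR5). In both lines the share was 26.4% for the whole list and 57.1% for the 14 receptors, of which FZD2, FZD3, FZD6, FZD7, FZD10 and LRP6 were scored on both gene ends. With 14 genes the receptor share in both lines is not far from that of all genes. In at least 1 line the share was 85.7% for the receptors and 58.2% for all protein-coding genes. A start is listed for 37 of the 53 genes, and for the other 16 both gene ends were used, so their counts include sites at the 3′ end.

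**Figure D4:**
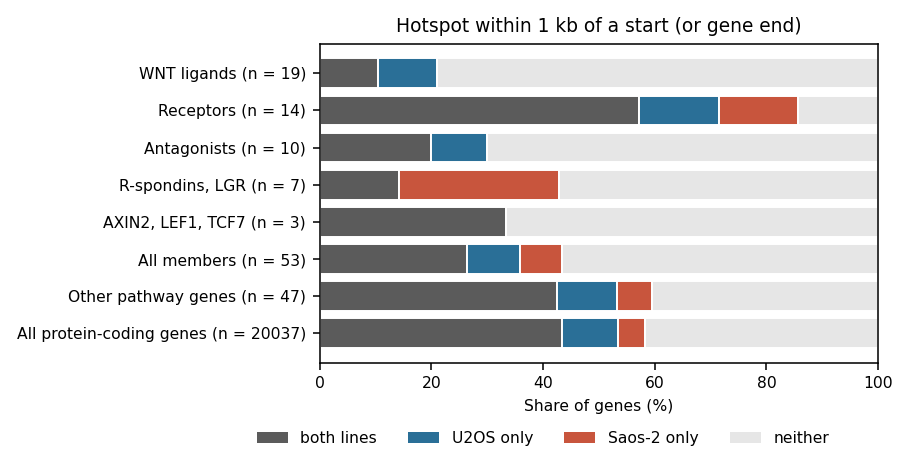
Share of genes (x axis, %) with a hotspot within 1 kb of a listed start, or of a gene end where no start is listed, in both lines, in 1 line or in neither, by role and for all protein-coding genes. The receptors had such a hotspot in at least 1 line in 12 of 14 genes and the ligands in 4 of 19, against 58.2% of all protein-coding genes.

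By covered bases 5 receptors were called for U2OS (FZD3, FZD4, FZD9, FZD10 and LRP6) and 1 for Saos-2 (FZD7) of 14, against 26.0% and 7.91% of all genes, and 8 had more in U2OS. The count for U2OS was 1 of 13 with a window of 10 kb (28.3% of all genes), 3 of 14 with 100 kb (23.4%) and 3 of 14 with centring (19.6%). Among the Frizzled receptors FZD1, FZD5 and FZD8 carried a hotspot over most or all of the 300-base promoter in both lines. At FZD1 its significance was 10.6 in Saos-2 and 16.8 in U2OS, at FZD5 10.9 and 11.2, and at FZD8 4.61 and 5.51. FZD9 was similar, with 245 of 300 promoter bases covered in Saos-2 and 186 in U2OS. FZD2, whose start is not listed, had a hotspot just below its lower-coordinate end in both lines. Its window held 1676 bp in Saos-2 against 2687 bp in U2OS. In the whole windows FZD1 had 775 bp in Saos-2 against 1122 bp in U2OS, FZD5 1375 and 1134 bp, and FZD8 651 and 463 bp, so these genes stayed within 2-fold.

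FZD4 (gene 8322, chromosome 11, 86945679 to 86955395), a receptor of blood vessel growth in the retina, was accessible over a longer stretch in U2OS. Its window held 729 bp in Saos-2 against 1916 bp in U2OS, a ratio of 2.63. Around its start U2OS had 3 hotspots and Saos-2 1. The U2OS hotspot at 86955307 to 86955637, with a significance of 10.9, covered the start and 292 of the 300 promoter bases shown above and had no counterpart, while the Saos-2 hotspot lay 0.316 kb upstream of the start and covered none of them.

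FZD3 (gene 7976, chromosome 8, 28494212 to 28574258), a receptor needed for axon growth, had 990 bp in Saos-2 against 2734 bp in U2OS, a ratio of 2.76. All 4 Saos-2 hotspots were overlapped. The additional U2OS hotspots lay mostly above the upper-coordinate end, and the most significant, at 28600873 to 28601215 (20.8) and at 28616875 to 28617318 (15.7), had no Saos-2 counterpart. The surroundings were richer in U2OS as well: the ratio was 4.36 within 1 Mb beyond the window and 1.72 over chromosome 8. Around FZD10 no Saos-2 hotspot was called and 553 bp were covered in U2OS, and there too the surrounding ratio was high, at 5.71. FZD9 had 245 bp and 592 bp. FZD6, also on chromosome 8, had nearly equal coverage of 1811 bp and 1778 bp, with a hotspot within 1 kb of its lower-coordinate end in U2OS alone.

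FZD7 (gene 8324, chromosome 2, 202033855 to 202038441), a Frizzled receptor of stem and mesenchymal cells, was the only Frizzled gene called for Saos-2. It had 6 hotspots over 1465 bp in Saos-2 and a single hotspot of 103 bp in U2OS, which gave a ratio of 14.2 in favour of Saos-2. The Saos-2 hotspot at 202033492 to 202034174 spanned the lower-coordinate end of the gene over 683 bp, with a significance of 4.73, and no U2OS hotspot overlapped it. The U2OS hotspot, with a significance of 1.70, lay above the upper-coordinate end and overlapped 2 small Saos-2 ones. Within 1 Mb beyond the window U2OS had 1.16 times the covered bases of Saos-2, so the surroundings did not share the direction of the gene.

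The co-receptors LRP5 and LRP6 were both higher in U2OS. LRP6 had 715 bp and 1670 bp, a ratio of 2.34, and a hotspot at its upper-coordinate end in both lines. LRP5 (gene 4041, chromosome 11, 68298412 to 68449275) had 2180 bp and 3002 bp, and neither line had a hotspot within 1 kb of its listed start. The nearest one was 2.35 kb away in U2OS and 29.9 kb in Saos-2, although a U2OS hotspot lay 0.355 kb from the lower-coordinate end of the gene. Inside LRP5 a U2OS hotspot of 695 bp at 68354161 to 68354855, with a significance of 25.5, overlapped 2 Saos-2 hotspots of 199 and 181 bp.

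ROR1 (gene 4919, chromosome 1, 63774017 to 64181498) and ROR2 (gene 4920, chromosome 9, 91722601 to 91950228), the receptor tyrosine kinases of WNT5A, had more covered bases in Saos-2. ROR1 had 28 hotspots over 8218 bp in Saos-2, of which 25 lay inside the gene, and 13 over 4865 bp in U2OS, of which 10 did. In U2OS 9 of the 13 were overlapped by a Saos-2 hotspot, and in Saos-2 9 of the 28 were overlapped. The ratio of 1.69 in favour of Saos-2 is below 2-fold. Intronic or exonic position is not given, because the gene table lists spans only. At 63955727 to 63956157 and at 63795000 to 63795427, Saos-2 hotspots with significances of 16.6 and 13.0 had no U2OS counterpart. The site at 63920263 to 63921126, with the highest U2OS significance in the gene (44.3), was shared and had a significance of 17.9 in Saos-2.

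At the starts the ROR genes were opposite. The Saos-2 hotspot at the start of ROR1 was 166 bp wide with a significance of 2.99, and the nearest U2OS hotspot was 27.5 kb away. At ROR2 a U2OS hotspot of 150 bp with a significance of 3.06 ended 0.015 kb upstream of the start, and the nearest Saos-2 hotspot was 28.9 kb away. Both promoter hotspots rank low in their own lists, above 35.0% and 31.7% of hotspots respectively. ROR2 had 2071 bp in Saos-2 against 1409 bp in U2OS, yet the most significant site inside it, at 91838212 to 91838582 (24.0), was called in U2OS and had no Saos-2 counterpart.

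Of the 10 antagonists 6 were called for U2OS and 0 for Saos-2, against 26.0% and 7.91% of all genes, and 8 had more covered bases in U2OS. They were sparsely covered in both lines, the median being 372 bp for Saos-2 and 576.5 bp for U2OS, compared with 1027 bp and 1292 bp for all protein-coding genes. DKK4, with 848 bp in Saos-2 against 583 bp in U2OS, and SFRP5, with 675 bp against 443 bp, had more in Saos-2. The count of 6 depended on the settings: it was 3 of 10 with lists of equal length (22.8% of all genes) and 3 of 10 with the ratio centred on the whole genome (19.6%). It was 3 of 7 when genes under 500 covered bases were left out (23.3%), and 2 of 10 within 100 kb (23.4%).

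DKK1 (gene 22943, chromosome 10, 52314281 to 52317657), an inhibitor of LRP5 and LRP6 and itself a known target of the pathway, had no Saos-2 hotspot in its window and 5 U2OS hotspots over 1285 bp. The Saos-2 hotspot nearest to its start was 81.9 kb away. The U2OS hotspot at 52318927 to 52319573 was 647 bp wide, lay 1.27 kb beyond the 3′ end of the gene, and had a significance of 29.4, above 97.1% of all U2OS hotspots. It was the most significant U2OS hotspot without a Saos-2 counterpart in the windows of the 53 genes. The DKK1 promoter itself had no hotspot in either line. Within 1 Mb beyond the window the U2OS to Saos-2 ratio was 1.68.

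DKK3, a divergent member of the family, had 6 hotspots over 1222 bp in Saos-2, all of them overlapped, and 10 over 2615 bp in U2OS, a ratio of 2.14. The sites above its upper-coordinate end at 12042233 to 12042673 and at 12043982 to 12044751 had significances of 20.9 and 25.6 in U2OS and were overlapped by Saos-2 hotspots of 203 and 228 bp. DKK2 had no hotspot in Saos-2 and 1 of 145 bp in U2OS. DKK4 appeared to have the most significant gene-end hotspot of the list, at 41.5 in Saos-2 and 19.4 in U2OS, but this hotspot also lies within 1 kb of the neighbouring gene VDAC3 and cannot be assigned to either gene.

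The secreted Frizzled-related proteins carried little accessible chromatin. SFRP1, SFRP2, SFRP4 and SFRP5 had 132 to 675 covered bp in Saos-2, compared with 334 to 570 bp in U2OS. SFRP1 had 163 bp and 341 bp, and at its upper-coordinate end a U2OS hotspot of 111 bp with a significance of 1.82. SFRP4 had a small hotspot upstream of its start in both lines, with significances of 2.19 and 1.60. FRZB had 695 bp and 958 bp. All of the Saos-2 bases and 721 bp in U2OS belonged to a shared site 48.8 kb from the gene. WIF1 had 344 bp and 756 bp. Its 1 Saos-2 hotspot and 2 of its 3 U2OS hotspots lay within 1 kb of the neighbouring gene LEMD3. The remaining U2OS hotspot, of 230 bp, had no Saos-2 counterpart.

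Of the R-spondins and LGR receptors, 6 of 7 had more covered bases in U2OS. The median of the group went the other way, at 1449 bp in Saos-2 against 866 bp in U2OS. Only 1 gene was called in each direction, against 26.0% of all genes for U2OS and 7.91% for Saos-2. RSPO1 was called for U2OS with 378 bp and 866 bp, and its only Saos-2 hotspot and the largest U2OS one lay at the neighbouring gene GNL2. RSPO2 (gene 340419, chromosome 8, 107899316 to 108083620), an R-spondin active in limb and bone development, had 8 hotspots over 2877 bp in Saos-2 and 4 over 752 bp in U2OS, a ratio of 3.83 in favour of Saos-2. A Saos-2 hotspot with a significance of 8.22, at 108083528 to 108083791, crossed its upper-coordinate end and had no U2OS counterpart. The most significant Saos-2 hotspot of all the windows, at 58.6, lay 36.1 kb above RSPO2 at 108119693 to 108120778. It was 1086 bp wide, and the U2OS hotspot inside it was 272 bp wide with a significance of 5.50. The direction at RSPO2 was opposite to that of chromosome 8, where U2OS had 1.72 times the covered bases, and equal to that of its surroundings, where the ratio was 0.574 within 1 Mb.

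LGR4, a widely expressed R-spondin receptor, had a promoter hotspot in both lines, with significances of 11.7 and 13.8 and 286 and 292 of 300 bases covered, and a coverage of 1769 bp and 1930 bp. LGR5, a stem cell marker of the intestine, had 1449 bp and 1812 bp, and 4 of 5 hotspots in each line were shared. The shared site inside LGR5 at 71556877 to 71557307 had significances of 31.6 in Saos-2 and 27.3 in U2OS. Its Saos-2 hotspot near the lower-coordinate end, of 162 bp, had a significance of 2.13. LGR6 had 12 hotspots in each line, over 3121 bp and 4655 bp, and the site with the highest U2OS significance of all the windows, 52.6, lay in its flank within 1 kb of PPP1R12B and was shared with Saos-2, where it had 30.2. RSPO3 and RSPO4 had 639 and 354 bp in Saos-2 and 705 and 640 bp in U2OS.

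The DNA-binding factors LEF1 and TCF7 had more hotspots in Saos-2. TCF7 (gene 6932, chromosome 5, 134108218 to 134148210) had 5 hotspots over 1579 bp in Saos-2 and 1 of 228 bp in U2OS, a ratio of 6.93 in favour of Saos-2. LEF1 (gene 51176, chromosome 4, 108047548 to 108168932) had 5 over 1040 bp and 1 of 287 bp, a ratio of 3.62. No hotspot was shared between the lines in either window. None lay within 1 kb of a listed start, but a pair of Saos-2 hotspots began 1.06 kb downstream of the second listed start of TCF7. The significances were modest, at most 5.53 in Saos-2 for TCF7 and 5.36 for LEF1, and 4.75 and 2.89 in U2OS. Beyond the windows U2OS and Saos-2 were nearly level, with ratios of 1.05 at TCF7 and 1.06 at LEF1. AXIN2, the feedback inhibitor and widely used reporter of β-catenin activity, differed little, with 1499 bp in Saos-2 against 1689 bp in U2OS and hotspots at its upper-coordinate end in both lines, of significance 6.96 and 6.93.

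Across all windows 122 of 229 Saos-2 hotspots (53.3%, exact 95% interval 46.6 to 59.9%) overlapped a U2OS hotspot, and 116 of 235 U2OS hotspots (49.4%, 42.8 to 55.9%) overlapped a Saos-2 hotspot by at least 1 bp. Outside the windows these shares were 58.1% and 46.9%, inside both intervals. The intervals are Clopper-Pearson intervals and take in only counting error, while hotspots that lie close together are not independent. Hotspots within 1 kb of a start or gene end of the list were overlapped in 15 of 21 cases in Saos-2 and 15 of 22 in U2OS. Elsewhere in the windows it was 107 of 208 and 101 of 213. The share at starts and ends of all protein-coding genes was not computed, so the difference is not read as particular to the list. By role, the lowest share for U2OS hotspots was at the antagonists, 13 of 33 (39.4%, 22.9 to 57.9%), and the lowest for Saos-2 hotspots was at AXIN2, LEF1 and TCF7, 4 of 16 (25.0%, 7.27 to 52.4%). The 4 overlapped ones all lay at AXIN2. The antagonists had the highest share by role for Saos-2 hotspots, 15 of 21 (71.4%, 47.8 to 88.7%). In Saos-2 101 of the 229 hotspots lay inside a gene of the list and in U2OS 85 of 235, while 25 and 29 lay within 1 kb of a start or end of another protein-coding gene.

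**Figure D5:**
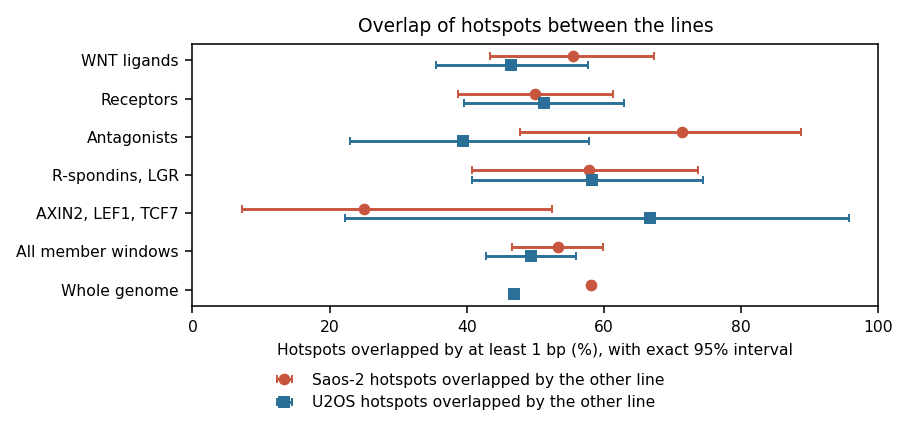
Share of hotspots overlapped by at least 1 bp in the other line (x axis, %), for Saos-2 hotspots (circles) and U2OS hotspots (squares), by the role of the nearest gene of the list, over all windows and over the whole genome. Bars are exact 95% intervals for counting error; over all windows the shares were 53.3% and 49.4%.

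The 300-base promoters were also searched on both strands for short motifs. Starts were listed for 37 of the genes, with 43 promoters, and for comparison there were 22199 promoters of protein-coding genes. The TCF/LEF core CTTTGA was found in 1 of 43 promoters (2.33%), that of DKK1, and in 10.9% of all promoters. At DKK1 it occurred in both orientations, beginning 149 and 95 bases before the start. The longer form CTTTGAT, which contains the core, was in none of the 43 and in 1.98% of all. The AP-1 motif TGANTCA was in none of the 43 and in 6.15% of all. The RUNX motif TGTGGT was in 7 of 43 (16.3%), at FZD5, LEF1, LGR4, RSPO3, WNT1, WNT5A and WNT5B, and in 11.3% of all. These matches describe letters in a fixed window and are not bound sites. GC content ran from 45.7% at WNT8B to 86.7% at LRP5 and was not computed for all promoters. The shares are therefore not matched for base composition.

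Other genes of the pathway, a fixed list of 47 that covers the β-catenin destruction complex, Dishevelled proteins, WNT secretion, receptor turnover and planar polarity, were compared in the same way. Of these 11 were called for U2OS and 1 for Saos-2, against 26.0% and 7.91% of all genes, and their median log2 ratio was 0.05, against 0.26. A hotspot within 1 kb of a start or gene end was found in both lines for 20 of them, in U2OS only for 5 and in Saos-2 only for 3, against 43.3%, 10.1% and 4.79% of all genes. The count called for U2OS and the 3 promoter counts lie near the shares of all genes. The 1 of 47 called for Saos-2 lies below 7.91%, and no conclusion is drawn from so small a count. The gene called for Saos-2 was GPC4, a cell-surface glypican, with 913 bp and 264 bp. CTNNB1, which encodes β-catenin, had 2325 bp in Saos-2 against 2321 bp in U2OS, and APC had 1212 bp and 1529 bp.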

How the data were processed

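DNase-seq was made from nuclei of Saos-2 and U2OS, 1 library each, digested for 3 min at 37 °C, per the labels' protocols. Per the submitters' processing notes, Trimmomatic 0.38, BWA 0.7.15 and hg38 were used. The hotspot caller is not given in the sources used here. A false discovery rate of 0.05 is part of the names of the deposited files. The authors called hotspots per library, and each deposited hotspot has a −log10 value, taken as its significance because its minimum is 1.30 and its maximum 100; nothing in the files names it. Read depth is unknown.

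Overlaps and covered bases were computed with Python 3.11.15, numpy 2.4.6 and pandas 2.3.3, and intervals with scipy 1.17.1; the counting was tested on simulated hotspots. Gene spans and listed starts came from RefSeq tables on GRCh38.p14, which have no exons. Listed starts are incomplete, and a start further inside a gene can be missed. The genes, lists and rules were chosen with earlier results of these data known. Genes given with values are those with a promoter hotspot in 1 line, those with the largest differences per role, those holding the 5 most significant unshared hotspots per line, those with the most significant promoter hotspots, and a fixed set; a few others were added after their values were seen. Alternatives were other windows, list lengths, significance limits, merging, centring and overlap. No replicate exists, so no test was made.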

Additional observations from a re-analysis of the deposited data

How the results depend on the processing

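No paired analysis was possible because each line has 1 library, and no replicate could be left out. Of 110 values recomputed under alternatives, 87 stayed within 1.5-fold (counts) or within the exact 95% interval (shares) and 23 moved. Raw counts were compared, also where a setting changed the number of genes, so a count can move because fewer genes were counted. The settings without chromosome 8, without hotspots at other genes and with listed starts only were chosen after seeing the data.

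Counts called for U2OS moved as follows. With a window of 10 kb, 8 of 18 ligands, 1 of 13 receptors and 3 of 7 antagonists with a hotspot were called (28.3% of all genes), and with 100 kb 3 of 14 receptors and 2 of 10 antagonists (23.4%). Equal lists gave 3 of 10 antagonists (22.8%). Centring on the genome-wide ratio gave 9 of 53 genes, against 19.6% of all genes, with 3 receptors and 3 antagonists. A minimum of 500 covered bases gave 3 of 7 antagonists (23.3%).

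For Saos-2, 0 antagonists were called in the report. The count was 1 of 7 with 10 kb (12.6% of all genes) and 1 of 10 with 100 kb (5.55%). With equal lists it was 1 of 10 (10.3%). Without hotspots at other genes it was also 1 of 10, and no share of all genes was computed there. For ligands the count was 1 of 19 with 100 kb (5.55%). For receptors it was 2 of 14 after centring (12.8%) and 2 of 14 by number of hotspots (10.5%).

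Promoter hotspots in U2OS only were found for 3 of 53 genes with equal lists, against 7.86% of all genes. With listed starts only they were found in both lines for 8 of 37 genes, in U2OS only for 2 and in Saos-2 only for 1. Of all genes with a listed start the shares were 46.3%, 9.54% and 4.78%. When an overlap had to span 50% of each hotspot, 40.6% of Saos-2 and 39.6% of U2OS hotspots were shared. Small groups and an unknown read depth limit all these counts.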

Other observations

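Values of some of the 47 other pathway genes, chosen here after they were seen, are given without a theme, since 11 called for U2OS lie near the share of all genes. SOST, a bone-specific inhibitor of LRP5 and LRP6, had 859 bp in Saos-2 against 2001 bp in U2OS. NKD1, a feedback inhibitor that binds Dishevelled, had 874 bp and 1948 bp. Around NKD2 and around VANGL2, a planar polarity gene, no Saos-2 hotspot was called, while U2OS had 1265 bp and 543 bp. PRICKLE1, also of planar polarity, had 65 bp and 1047 bp. WLS, which carries WNT proteins to the cell surface, had 429 bp and 1391 bp, yet its hotspot within 1 kb of a start or gene end was called in Saos-2 only. Some related genes were level or higher in Saos-2. KREMEN1, a receptor of DKK proteins, had 1834 bp and 1286 bp, and SOSTDC1, a relative of SOST, 1328 and 1111 bp. RNF43 had 3260 and 3087 bp, and the polarity gene CELSR1 2570 and 2368 bp. Other related genes were higher in U2OS. KREMEN2 had 276 bp and 964 bp and was called for U2OS. ZNRF3 had 2016 bp and 2447 bp, and VANGL1 1590 bp and 1862 bp. TCF7L1 and TCF7L2, the relatives of TCF7 and LEF1, had 3874 and 4443 bp in Saos-2 and 3300 and 3303 bp in U2OS, and stayed within 2-fold.

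The stretches within 1 Mb beyond the windows had a U2OS to Saos-2 ratio of covered bases between 0.574 and 5.71 over the 53 genes, with a median of 1.38. For the 16 genes called for U2OS the median was 1.49, and it was at least 2 for 3 of them, WNT5B, FZD3 and FZD10. For the 6 genes called for Saos-2 it was 1.05, and it was below 1 for 2 of them, WNT16 and RSPO2. The part of the surroundings in these calls was not tested.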
